A study of Mus musculus with 12 samples.

Results

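The potassium channel genes of the contused mouse spinal cord are described here across animals that differ in interleukin-1. The set holds every symbol of the array platform's annotation that begins with Kcn, apart from Kcnj10 and the Kcnip genes. It comprised 87 of the 19938 genes measured, read by 90 probe sets with a single gene symbol, and the brightest probe set stood for each gene. All 87 genes entered every comparison, since no filter on low values was applied. The membership rule uses names and no measured value.

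The comparison covered 3 genotypes with 4 arrays each: wild-type C57BL/6 mice, mice lacking interleukin-1 alpha (Il1a KO) and mice lacking interleukin-1 beta (Il1b KO), both on the C57BL/6 background. All animals were 8 to 12 weeks old and had received a 50 kdyn contusion with an impactor. A 6 mm length of cord around the lesion was collected at 24 h, and total RNA was hybridised to whole-transcript arrays, so every group carries the injury and uninjured cord was not analysed here. The labels name no allele, deleted exon or sex, and they call the arrays biological replicates without naming animals, so a p-value measures the spread between these arrays.

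Potassium channels let potassium ions leave the cell and so set the resting potential, repolarise the membrane after each action potential and limit repetitive firing. The pore is built from alpha subunits of several families: voltage-gated (Kv), calcium- or sodium-activated, inward-rectifying (Kir) and tandem-pore (K2P) subunits, joined by cytoplasmic or membrane-spanning auxiliary subunits that alter gating and trafficking. In spinal white matter Kv1 channels sit beside the nodes of Ranvier under the myelin, in astrocytes Kir channels take up potassium released by firing axons, and in macrophages and microglia potassium efflux is a known trigger of the inflammasome that matures interleukin-1 beta.

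The measured set held 8 Kv1 genes, 1 Kv2, 3 Kv3, 3 Kv4, 3 Kv7, 7 genes of the EAG, ERG and ELK group and 10 electrically silent Kv modifiers. It also held 8 genes classed by symbol with the calcium- or sodium-activated channels, Kcnu1 among them, 14 inward rectifiers, 14 K2P genes and 12 auxiliary subunits. A further 4 symbols code for no channel subunit: the antisense transcripts Kcnd3os, Kcnmb4os1 and Kcnmb4os2, and the regulator Kcnrg. The genes lie on 19 chromosomes. By mean signal, 45 members lay below percentile 50 of all genes, 12 of these below percentile 25, and 6 reached percentile 90 (Kcna1, Kcna2, Kcnab1, Kcnab2, Kcnk1 and Kcnk9). Values are on the log2 scale, so a difference of 1 is a doubling, and they are compared only within a gene because probe sets differ in brightness.

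Each knockout showed its own gene low. Il1b differed by -1.42 in the Il1b KO (limma adjusted p = 2.64e-06) and Il1a by -0.90 in the Il1a KO (adjusted p = 0.00372), while Il1a also differed by -0.77 in the Il1b KO (adjusted p = 0.0039). Markers of neurons all lay at percentile 75.7 or above (12 of 12 measured), the tissue label being spinal cord. Il1a KO replicate 1 stood apart in sex-linked genes, with an Xist value of 6.47 against 11.89 to 12.19 in the other arrays. Wild type replicates 1, 3 and 4 stood apart in the potassium channel genes themselves. Replicate 1 held the highest of the 12 values in 31 of the 87 genes (35.6%, against 24.9% of all genes). Replicate 3 held the lowest in 31 (35.6%, against 20.0%) and replicate 4 in 17 (19.5%, against 8.58%). Among the 42 members at percentile 50 or above, replicate 4 was lowest in 12 (28.6%, against 12.7% of all such genes). Because the tissue is bulk cord, fewer cells of a type and less RNA per cell cannot be told apart.

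**Figure D1:**
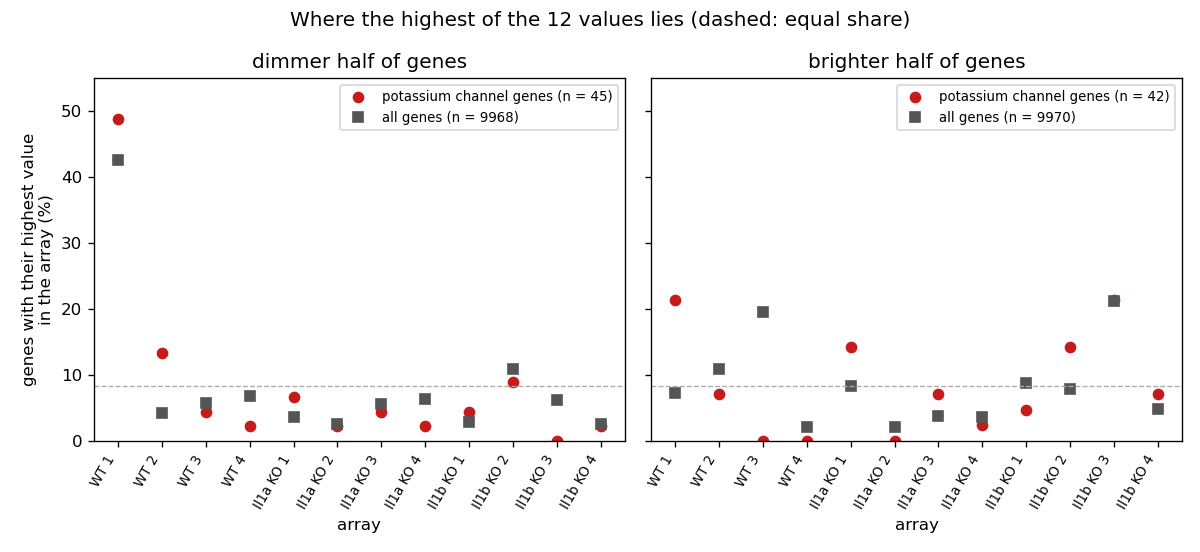
Share of genes (y axis, percent) that have their highest value in each of the 12 arrays (x axis), for the potassium channel genes and for all genes, with dimmer genes (below percentile 50) on the left and brighter genes on the right; the dashed line is the equal share of 8.33%. Wild type replicate 1 holds the highest value of 22 of 45 dimmer members (48.9%, all dimmer genes 42.6%) and of 9 of 42 brighter members (21.4%, all brighter genes 7.22%).

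A single potassium channel gene passed the test in any comparison. Kcne1l, also called Kcne5, codes for a small single-span membrane subunit that inhibits Kv7.1 channels, and it fell in the Il1b KO by 0.36 on the log2 scale, a 1.28-fold lower level. Its wild-type values were 8.84, 8.56, 8.49 and 8.59, its Il1a KO values 8.33, 8.37, 8.32 and 8.48, and its Il1b KO values 8.35, 8.29, 8.22 and 8.18. Every knockout array lay below every wild-type array, the margin in the Il1a KO being the gap between 8.48 and 8.49, and the knockouts overlapped each other. The means were 8.62 ± 0.154 (SD, n = 4) in wild type, 8.38 ± 0.0757 (SD, n = 4) in the Il1a KO and 8.26 ± 0.0748 (SD, n = 4) in the Il1b KO. The log2 difference from wild type was -0.36 in the Il1b KO (SE 0.0704, 95% confidence interval -0.51 to -0.21, limma adjusted p = 0.0341). It was -0.24 in the Il1a KO (SE 0.0704, interval -0.39 to -0.09, adjusted p = 0.315), which did not pass. The knockouts themselves differed by 0.12, also without passing (adjusted p = 0.755).

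The Kcne1l call sits close to the threshold. The difference stayed between -0.40 and -0.28 when any single array was left out, and it was -0.28 without wild type replicate 1, the highest array, where it still passed (limma adjusted p = 0.0308). Leaving out wild type replicate 4 ended the call (adjusted p = 0.0891), as did fits without Il1a KO replicate 2 (0.0578) or 3 (0.056), without Il1b KO replicate 2 (0.0673), 3 (0.116) or 4 (0.107), and a fit on the wild-type and Il1b KO arrays alone (0.123). The skeletal muscle markers, another tissue that a dissected segment can carry, averaged 6.78 to 7.20 in wild-type arrays, 6.77 to 6.83 in the Il1a KO and 6.71 to 6.86 in the Il1b KO; 0 of 6 passed and all 6 had negative differences in both knockouts, and their part in the result was not tested. All 6 lay between percentiles 15.7 and 46.4 of all genes, and wild type replicate 1 held the highest value in 42.6% of all genes below percentile 50. Muscle was not the only list with lower values. Neutrophil markers had medians of -0.35 and -0.25, with 0 and 2 of 7 differences positive, and their part was not tested either.

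Kcne1l lies on the X chromosome. The 5 measured genes on either side of it (Col4a6, Col4a5, Irs4, Gucy2f, Nxt2, Acsl4, Tmem164, Mir652, Ammecr1 and Rtl9) differed from wild type by -0.09 to 0.09 in the Il1b KO. Their range was wider in the Il1a KO, at -0.18 to 0.10, and between the knockouts, at -0.15 to 0.09. In each comparison 0 of 10 passed. The other member on the X chromosome, the Kv4 gene Kcnd1, differed by 0.05 in the Il1a KO and 0.03 in the Il1b KO. Without both wild type replicate 1 and the Il1a KO array with the divergent sex-linked profile, the Kcne1l difference was -0.28 in the Il1b KO (limma adjusted p = 0.0441).

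The upstream sequence is shown for the gene that passed and, as a comparison, for Kcna2, whose arrays lay above wild type in both knockouts without a pass. Both are the 250 bases before the transcription start in RefSeq's annotation of GRCm38.p6, written 5′ to 3′ on the strand of the gene. Kcne1l occupies chrX:142306199-142306448 on the minus strand and Kcna2 chr3:107101317-107101566 on the plus strand. Capitals mark a GC box, the element GGGCGG read on either strand, here 169 bases before the Kcne1l start. Neither window holds any of the other elements searched across the family.
Kcne1l: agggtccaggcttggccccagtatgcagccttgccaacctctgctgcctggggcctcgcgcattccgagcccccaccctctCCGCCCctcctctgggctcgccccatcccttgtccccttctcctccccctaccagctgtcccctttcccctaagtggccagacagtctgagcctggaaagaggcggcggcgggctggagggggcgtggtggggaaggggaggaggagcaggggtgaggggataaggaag
Kcna2: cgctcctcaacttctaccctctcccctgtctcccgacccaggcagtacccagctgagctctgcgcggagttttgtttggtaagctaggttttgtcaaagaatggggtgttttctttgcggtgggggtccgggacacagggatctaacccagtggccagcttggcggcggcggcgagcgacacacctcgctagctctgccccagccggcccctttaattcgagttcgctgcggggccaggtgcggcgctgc

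Across the family, 65 of the 87 members had a promoter entry, in 85 windows, against 32851 windows of the whole table. Both strands were searched. The kappaB consensus, bound by the NF-kappaB factors downstream of the interleukin-1 receptor, was in 5 member windows (5.88%, Kcnc2, Kcng3, Kcnmb4, Kcnn1 and Kcns3) and in 3.90% of all windows. The AP-1 element TGANTCA was in 2 member windows (2.35%, Kcne3 and Kcnk2), against 6.75% of all. The cAMP response element TGACGTCA was in 0 member windows, against 1.55%. The GC box was in 38 (44.7%), against 32.7%, and the TATA element TATAAA in 3 (3.53%, Kcnj9, Kcnj13 and Kcnj16), against 12.4%. The median GC content was 58.4% in member windows and 52.4% in all windows.

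The first contrast, Il1a KO minus wild type, asks which channel genes differ in the injured cord when interleukin-1 alpha is missing. Of the 87 genes, 0 passed limma at an adjusted p of 0.05, against 0.171% of all genes (0.0752% higher and 0.0953% lower), and the smallest adjusted p was 0.165, that of Kcna1. At an unadjusted p under 0.05, 10 members were higher (11.5%, against 4.54% of all genes) and 1, Kcne1l, was lower (1.15%, against 3.77%). The knockout arrays lay above all wild-type arrays in 6 members, Kcna1, Kcna2, Kcnab1, Kcnh7, Kcnj3 and Kcnn2 (6.9%, against 2.87%), and below them in Kcne1l alone (2.19% of all genes). Positive differences were seen in 58 of 87 (66.7%, against 50.2%), with a median of 0.03 against 0.0003 for all genes. This count moved with the wild-type arrays: it was 67 without wild type replicate 1, with a median of 0.07, and 48 without wild type replicate 3, with a median of 0.01.

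The Il1b KO was set against wild type in the same way. Kcne1l was the only one of the 87 to pass (adjusted p under 0.05 in either direction in 0.813% of all genes, higher in 0.421% and lower in 0.391%). At an unadjusted p under 0.05, 16 members were higher (18.4%, against 8.42% of all genes) and 2, Kcne1l and Kcnq3, were lower (2.3%, against 4.58%). The knockout arrays lay above all wild-type arrays in 10 members, Kcna1, Kcna2, Kcnc1, Kcnd2, Kcnh1, Kcnma1, Kcnn2, Kcnq5, Kcns3 and Kcnt1 (11.5%, against 5.06%), and below them in Kcnab1 and Kcne1l (1.94% of all genes). Differences were positive in 51 (58.6%, against 52.0%), with a median of 0.03 against 0.004. The count was 62 without wild type replicate 1 and 41, with the median at -0.01, without wild type replicate 3. Both knockouts were compared with the same 4 wild-type arrays, so a gene that is low in those arrays is high in both comparisons.

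Directly between the knockouts, 0 of 87 passed (0.652% of all genes did, 0.346% higher in the Il1a KO and 0.306% lower). At an unadjusted p under 0.05, Kcnab1, Kcnk1 and Kcnq3 were higher in the Il1a KO (3.45%, against 2.99% of all genes) and Kcnh1 was lower in it (1.15%, against 4.8%). Arrays did not overlap in 7 members: Kcnab1, Kcnab2, Kcnk1 and Kcnq3 were higher in the Il1a KO (2.55% of all genes), and Kcnh1, Kcnq5 and Kcnt1 were higher in the Il1b KO (4.69%). Differences were positive in 44 of 87 (50.6%, against 47.3%), with a median of 0.003.

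The intervals bound the differences. The SE of a difference ran from 0.0338 to 0.214 with a median of 0.0633. The 95% confidence interval lay within 0.5 log2 units of 0, a 1.41-fold change, for 87 of 87 members in the Il1a KO, 85 in the Il1b KO and 86 between the knockouts. Of all genes, 99.1%, 98.8% and 98.8% had such an interval. It lay within 0.25, a 1.19-fold change, for 68, 64 and 68 members (78.2%, 73.6% and 78.2%). The shares of all genes were 81.0%, 75.5% and 79.4%, so these bounds were not particular to the potassium channel genes.

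**Figure D2:**
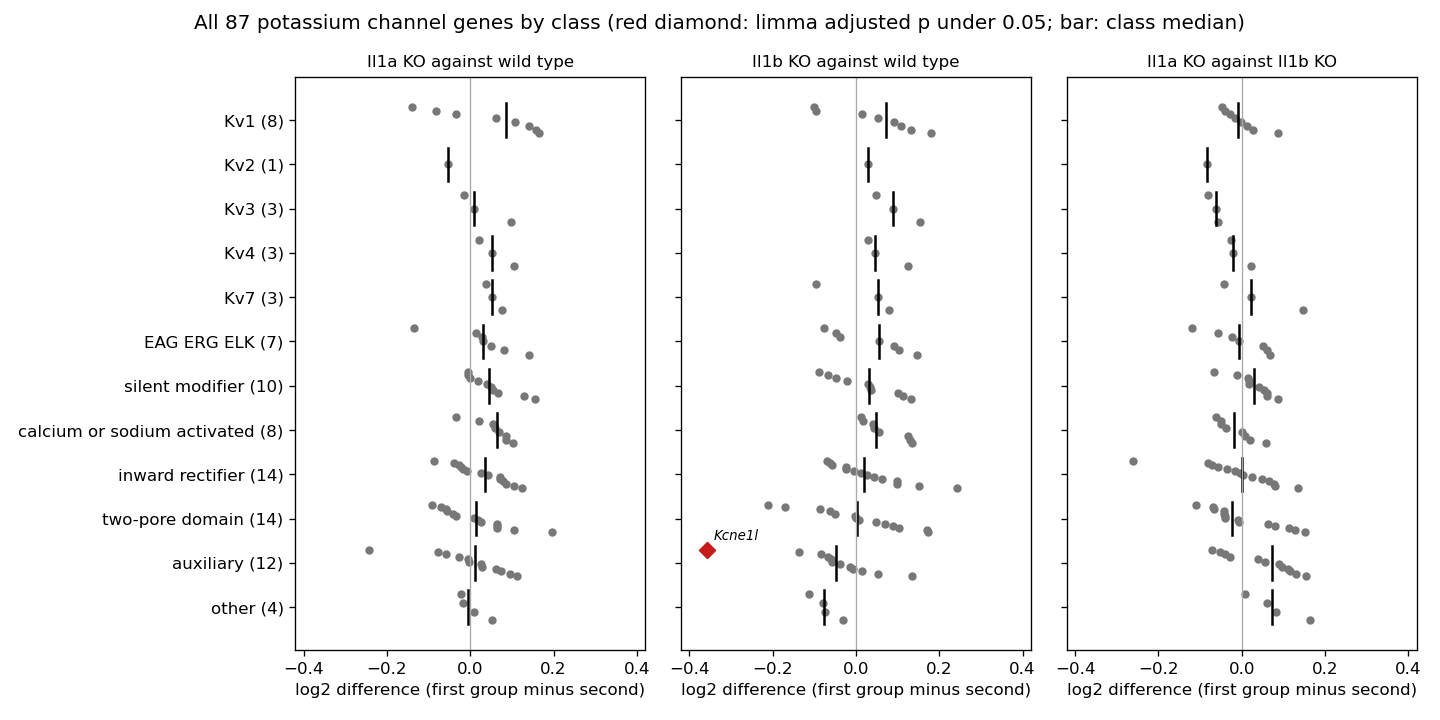
Log2 difference (x axis) of each of the 87 potassium channel genes, grouped by channel class (y axis), in the 3 comparisons; points are genes, bars are class medians and the red diamond is a limma adjusted p under 0.05. Kcne1l in the Il1b KO, at -0.36, is the single diamond, and the other members lie between -0.21 and 0.24 in that comparison.

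Among the Kv1 genes, which encode the low-threshold channels of axons and immune cells, 0 of 8 passed in any comparison, with a median difference of 0.08 in the Il1a KO and 0.07 in the Il1b KO. Kcna1, an axonal subunit of the juxtaparanode, read 11.54, 11.49, 11.45 and 11.48 in wild type, 11.64, 11.65, 11.67 and 11.64 in the Il1a KO, and 11.68, 11.63, 11.61 and 11.57 in the Il1b KO. All 8 knockout arrays lay above all 4 wild-type arrays. The differences were 0.16 in the Il1a KO (SE 0.0363, limma adjusted p = 0.165) and 0.13 in the Il1b KO (SE 0.0363, adjusted p = 0.137), and 0.03 between the knockouts. Both differences passed with an intensity trend and robust fit (adjusted p = 0.0241 and 0.0313) and with array weights (0.0289 and 0.0341). These were 2 of 21 alternative settings, and neither difference passed under the others. Over all settings the limma adjusted p reached 0.448 in the Il1a KO and 0.366 in the Il1b KO.

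Kcna2, the usual partner of Kcna1 in that tetramer, gave 11.38, 11.43, 11.42 and 11.41 in wild type, 11.55, 11.49, 11.49 and 11.52 in the Il1a KO, and 11.51, 11.46, 11.53 and 11.57 in the Il1b KO. Again no knockout array overlapped wild type, and the differences of 0.11 and 0.11 did not pass (adjusted p = 0.393 and 0.223). Its second probe set differed by 0.11 and 0.07. Kcna6, a further axonal Kv1 subunit, differed by 0.16 and 0.18 (adjusted p = 0.63 and 0.361) with overlapping arrays. Kcna3, the main Kv channel of T lymphocytes and activated microglia, differed by 0.06 and 0.09 (adjusted p = 0.802 and 0.397). Kcna5, which lay below percentile 25 of all genes, was among the lowest in the Il1a KO at -0.14 (adjusted p = 0.722). It differed by -0.10 in the Il1b KO.

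Markers of the myelin-forming cells beside these axonal domains ran in the same direction as Kcna1 and Kcna2. The mean log2 value of 7 measured mature oligodendrocyte markers (of 8 listed) was 11.59 to 11.71 in wild-type arrays, 11.75 to 11.91 in the Il1a KO and 11.67 to 11.83 in the Il1b KO. All 7 had positive differences in both knockouts (50.2% and 52.0% of all genes did) and 0 passed. The part of these markers in the Kcna1 and Kcna2 values was not tested. Neuron markers averaged 11.34 to 11.37, 11.34 to 11.42 and 11.37 to 11.44.

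**Figure D3:**
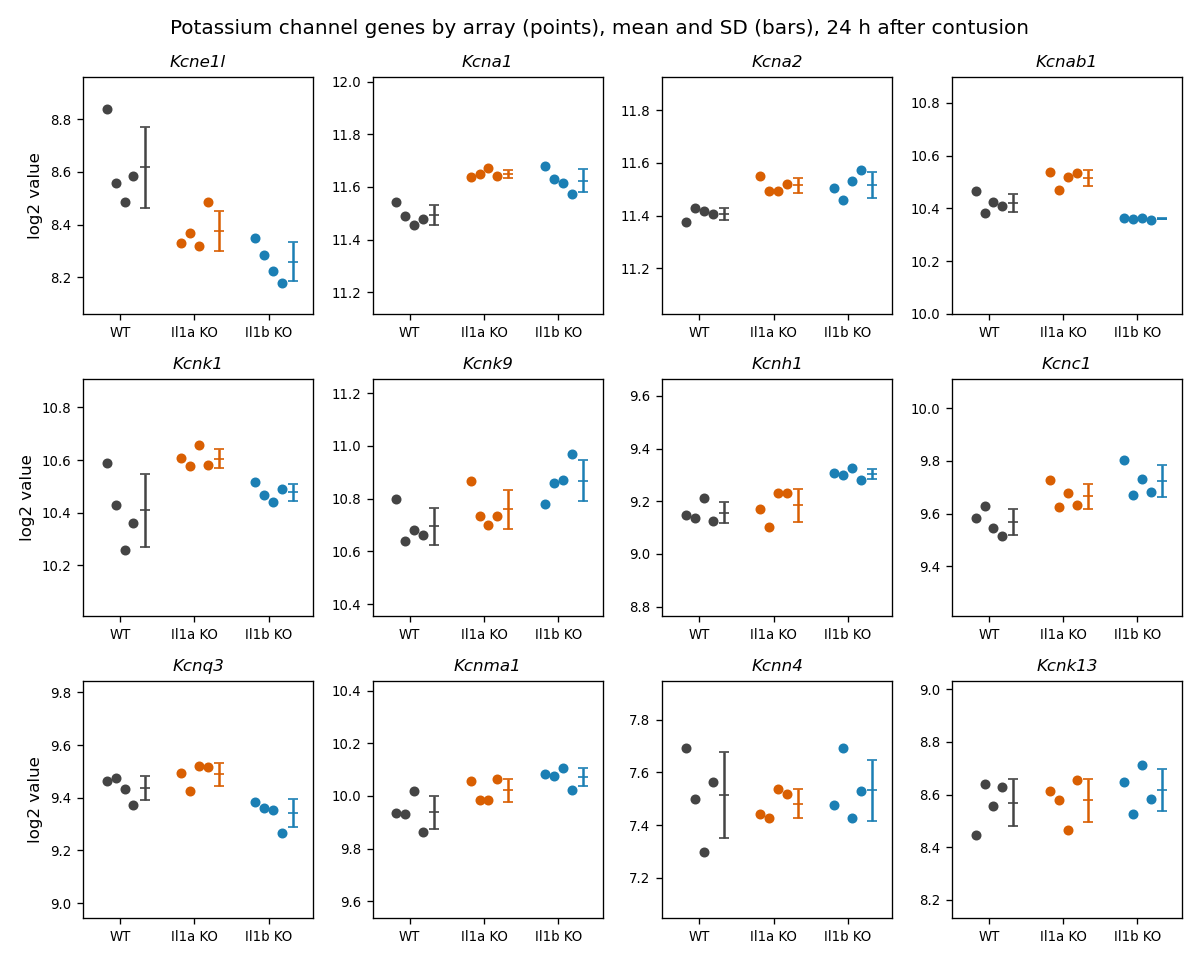
Log2 value (y axis) of 12 potassium channel genes in each array of the 3 genotypes (x axis); points are arrays, and the bar beside them is the mean with its SD (n = 4). Kcne1l lies lower in both knockouts, Kcna1 and Kcna2 lie higher in both, Kcnab1 is higher in the Il1a KO and lower in the Il1b KO, and Kcnn4 and Kcnk13 overlap throughout.

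The Kv3 and Kv4 genes serve fast repolarisation and dendritic A-type current. The Kv3 gene Kcnc1 read 9.58, 9.63, 9.55 and 9.51 in wild type, 9.73, 9.62, 9.68 and 9.63 in the Il1a KO, and 9.80, 9.67, 9.73 and 9.68 in the Il1b KO. Only the Il1b KO cleared wild type without overlap, and the difference of 0.15 did not pass (SE 0.0432, limma adjusted p = 0.146). In the Il1a KO it was 0.10 (adjusted p = 0.568). Kcnc2, typical of inhibitory interneurons, differed by -0.01 and 0.05 and Kcnc4 by 0.01 and 0.09. The Kv4 subunit Kcnd2 differed by 0.10 and 0.12 (adjusted p = 0.668 and 0.353), and the single Kv2 gene measured, Kcnb2, by -0.05 and 0.03.

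Kv7 subunits carry the M-current that restrains repetitive firing. Kcnq3 read 9.46, 9.48, 9.43 and 9.37 in wild type, 9.50, 9.42, 9.52 and 9.52 in the Il1a KO, and 9.39, 9.36, 9.35 and 9.26 in the Il1b KO. The Il1b KO arrays lay below all Il1a KO arrays and overlapped wild type through the wild-type value of 9.37. The difference between the knockouts was 0.15 (SE 0.0413, limma adjusted p = 0.232), and those from wild type were 0.05 and -0.10 (adjusted p = 0.846 and 0.352). Kcnq5, the other M-current subunit measured, had its Il1b KO arrays above both other groups, with differences of 0.08 from wild type (adjusted p = 0.34) and -0.04 for the Il1a KO against the Il1b KO (adjusted p = 0.833). Kcnq1, the pore subunit that Kcne1l inhibits, differed by 0.08 and 0.05 with overlapping arrays (adjusted p = 0.893 and 0.806).

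In the EAG, ERG and ELK group, Kcnh1, the EAG channel of neurons, read 9.15, 9.14, 9.21 and 9.13 in wild type, 9.17, 9.10, 9.23 and 9.23 in the Il1a KO, and 9.31, 9.30, 9.33 and 9.28 in the Il1b KO. All Il1b KO arrays stood above the other 8. The difference was 0.15 from wild type (SE 0.0397, limma adjusted p = 0.131) and -0.12 for the Il1a KO against the Il1b KO (adjusted p = 0.386). Kcnh7, an ERG channel, differed by 0.14 in the Il1a KO without overlap (adjusted p = 0.465) and by 0.09 in the Il1b KO. Kcnh2, the ERG channel best known from the heart, differed by 0.05 and 0.06. Kcnh3, an ELK channel, was variable, with differences of -0.14 and -0.08. Of the 10 silent modifiers, which form channels only together with other Kv subunits, 0 passed; Kcng4 differed by 0.16 and 0.10 (adjusted p = 0.496 and 0.519).

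Most calcium- and sodium-activated channels couple the membrane potential to ion entry. The class was formed by symbol and includes Kcnu1, which differed by 0.06 and 0.06. Differences in the class were positive in 7 of 8 in the Il1a KO (50.2% of all genes) and 8 of 8 in the Il1b KO (52.0% of all genes). The medians were 0.06 and 0.05, and 0 of 8 passed. These counts rested in part on 1 array: without wild type replicate 3 they were 5 of 8 in both comparisons, with medians of 0.08 and 0.06. The BK channel gene Kcnma1 read 9.94, 9.93, 10.02 and 9.86 in wild type, 10.06, 9.99, 9.98 and 10.06 in the Il1a KO, and 10.08, 10.08, 10.11 and 10.02 in the Il1b KO. The Il1b KO arrays lay above wild type, the closest pair both at 10.02 after rounding, and differed by 0.14 (SE 0.0415, limma adjusted p = 0.188). Its other probe set was far dimmer, with means of 5.50 in wild type, 5.30 in the Il1a KO and 5.34 in the Il1b KO. That set went the opposite way, by -0.16 in the Il1b KO and -0.20 in the Il1a KO, so the probe sets of Kcnma1 did not share a direction. Kcnt1, the sodium-activated Slack channel, differed by 0.07 and 0.13 (adjusted p = 0.718 and 0.171), and Kcnn2, the calcium-activated SK2 channel, by 0.09 and 0.12 (adjusted p = 0.705 and 0.291).

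Channels known from immune cells showed no call. Kcnn4, the intermediate-conductance channel of macrophages, microglia and T lymphocytes, read 7.69, 7.50, 7.30 and 7.57 in wild type, 7.44, 7.43, 7.54 and 7.52 in the Il1a KO, and 7.48, 7.69, 7.43 and 7.53 in the Il1b KO. The groups overlapped throughout, and the differences were -0.03 and 0.02 (limma adjusted p = 0.978 and 0.952). Kcnk13 (THIK-1), the resting channel of microglia, differed by 0.01 and 0.05 (adjusted p = 0.995 and 0.768). Kcnk6 (TWIK2), an efflux channel of macrophages, differed by -0.04 and -0.00, and Kcnj2 (Kir2.1), which rises in activated microglia, by 0.04 and 0.10.

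Marker genes of infiltrating and resident immune cells were read on the same arrays. Neutrophil markers averaged 8.13 to 8.41 in wild type, 7.67 to 8.12 in the Il1a KO and 7.49 to 8.30 in the Il1b KO, with 0 and 1 of 7 passing (Ly6g, lower in the Il1b KO). Markers of infiltrating monocytes and macrophages averaged 7.73 to 8.14, 7.49 to 7.78 and 7.61 to 7.97, and those of homeostatic microglia 7.70 to 7.92, 7.84 to 7.98 and 7.71 to 7.80. Of the 6 microglial markers measured, Gpr34 passed between the knockouts, higher in the Il1a KO by 0.31 (limma adjusted p = 0.0299), and 0 passed against wild type. Their part in the values of Kcnn4, Kcna3, Kcnk13, Kcnk6 and Kcnj2 was not tested.

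Inward rectifiers hold the resting potential near the potassium equilibrium. Of 14, 0 passed, with medians of 0.04 in the Il1a KO and 0.02 in the Il1b KO. Kcnj16 (Kir5.1), the partner of the excluded astrocyte channel Kcnj10, differed by 0.12 and 0.04 (limma adjusted p = 0.564 and 0.779). Kcnj3 (GIRK1), a G-protein-gated channel of neurons, differed by 0.11 in the Il1a KO without overlap (adjusted p = 0.64) and by 0.03 in the Il1b KO, and its relative Kcnj9 by 0.08 and 0.01. Kcnj8 (Kir6.1), the pore of the vascular ATP-sensitive channel, differed by 0.09 and 0.06 (adjusted p = 0.774 and 0.687). Kcnj5, below percentile 25 of all genes, differed by -0.09 and -0.07, and Kcnj12 by 0.07 and -0.06.

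Kcnj13 (Kir7.1), a channel of transporting epithelia such as the choroid plexus, was the most variable member, with a pooled SD within groups of 0.36. It read 7.24, 8.04, 7.34 and 6.81 in wild type, 7.42, 7.32, 7.38 and 7.24 in the Il1a KO, and 7.80, 7.91, 7.12 and 7.57 in the Il1b KO. Wild type alone spanned the lowest and the highest of the 12 arrays. The Il1b KO difference of 0.24 was the largest positive one among the members in that comparison and had an SE of 0.214 (limma adjusted p = 0.678), the widest of the family.

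K2P channels pass the background current of resting cells. Kcnk1 (TWIK1), found in astrocytes and neurons, read 10.59, 10.43, 10.26 and 10.36 in wild type, 10.61, 10.58, 10.66 and 10.58 in the Il1a KO, and 10.52, 10.47, 10.44 and 10.49 in the Il1b KO. The Il1a KO arrays lay above all Il1b KO arrays and above every wild-type array except replicate 1. The Il1a KO difference was 0.20 (SE 0.0583, limma adjusted p = 0.325), the largest positive one among the members in that comparison. Without wild type replicate 1 it was 0.26 and passed (adjusted p = 0.0471), and without wild type replicate 3, the lowest array, it was 0.15 and did not pass. It passed under 2 of 21 alternative settings, with limma adjusted p from 0.0255 to 0.788 over all of them. In the Il1b KO it was 0.07 (adjusted p = 0.662), and the knockouts differed from each other by 0.13 (adjusted p = 0.633).

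Kcnk9 (TASK3), an acid-sensitive channel of neurons, read 10.80, 10.64, 10.68 and 10.66 in wild type, 10.87, 10.73, 10.70 and 10.74 in the Il1a KO, and 10.78, 10.86, 10.87 and 10.97 in the Il1b KO. Only wild type replicate 1 reached into the range of the Il1b KO, whose difference was 0.17 (SE 0.0531, limma adjusted p = 0.186). Its relative Kcnk3 (TASK1) differed by 0.06 and -0.00. Kcnk12 differed by 0.10 and 0.17 (adjusted p = 0.75 and 0.283), and the stretch-sensitive Kcnk2 (TREK1) by -0.04 and 0.01. The largest negative K2P values were in the Il1b KO, at -0.21 for Kcnk16 and -0.17 for Kcnk15 (adjusted p = 0.434 and 0.411), and wild type replicate 1 was the highest array for both, at 7.50 and 8.10.

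Of the auxiliary subunits, 3 of 12 had a positive difference in the Il1b KO (52.0% of all genes), with a median of -0.05. In the Il1a KO 6 of 12 were positive (50.2% of all genes), with a median of 0.01. These counts rested in part on single arrays: without wild type replicate 1 they were 5 of 12 with a median of -0.009 and 9 of 12 with a median of 0.07, and without Il1b KO replicate 3 the Il1b KO median was -0.005. Kcne1l belongs to this class. Kcnab1, a cytoplasmic beta subunit that speeds the inactivation of Kv1 channels, read 10.47, 10.38, 10.42 and 10.41 in wild type, 10.54, 10.47, 10.52 and 10.53 in the Il1a KO, and 10.36 in all 4 Il1b KO arrays. It was the one member in which the Il1a KO arrays lay above wild type and the Il1b KO arrays below it, the closest Il1a KO and wild-type arrays meeting at 10.47 after rounding. The differences from wild type were 0.10 (limma adjusted p = 0.424) and -0.06 (adjusted p = 0.49). Between the knockouts it differed by 0.15 (SE 0.034, 95% confidence interval 0.08 to 0.23, adjusted p = 0.0745), the smallest adjusted p among the members in that comparison. It passed under 4 of 21 alternative settings, with adjusted p from 0.0133 to 0.246 over all of them.

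Kcnab2, the more widely expressed beta subunit of axonal Kv1 channels, differed by 0.11 and 0.01 from wild type and by 0.10 between the knockouts without overlap (limma adjusted p = 0.714). Kcne2 and Kcne3, small subunits related to Kcne1l, differed by -0.01 and -0.14 and by -0.00 and -0.06. Both lay below percentile 25 of all genes. Kcnmb4, the neuronal BK beta subunit, differed by 0.03 and 0.05. The antisense transcript Kcnmb4os2 differed by 0.05 and -0.11 and by 0.16 between the knockouts (adjusted p = 0.753).

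**Figure D4:**
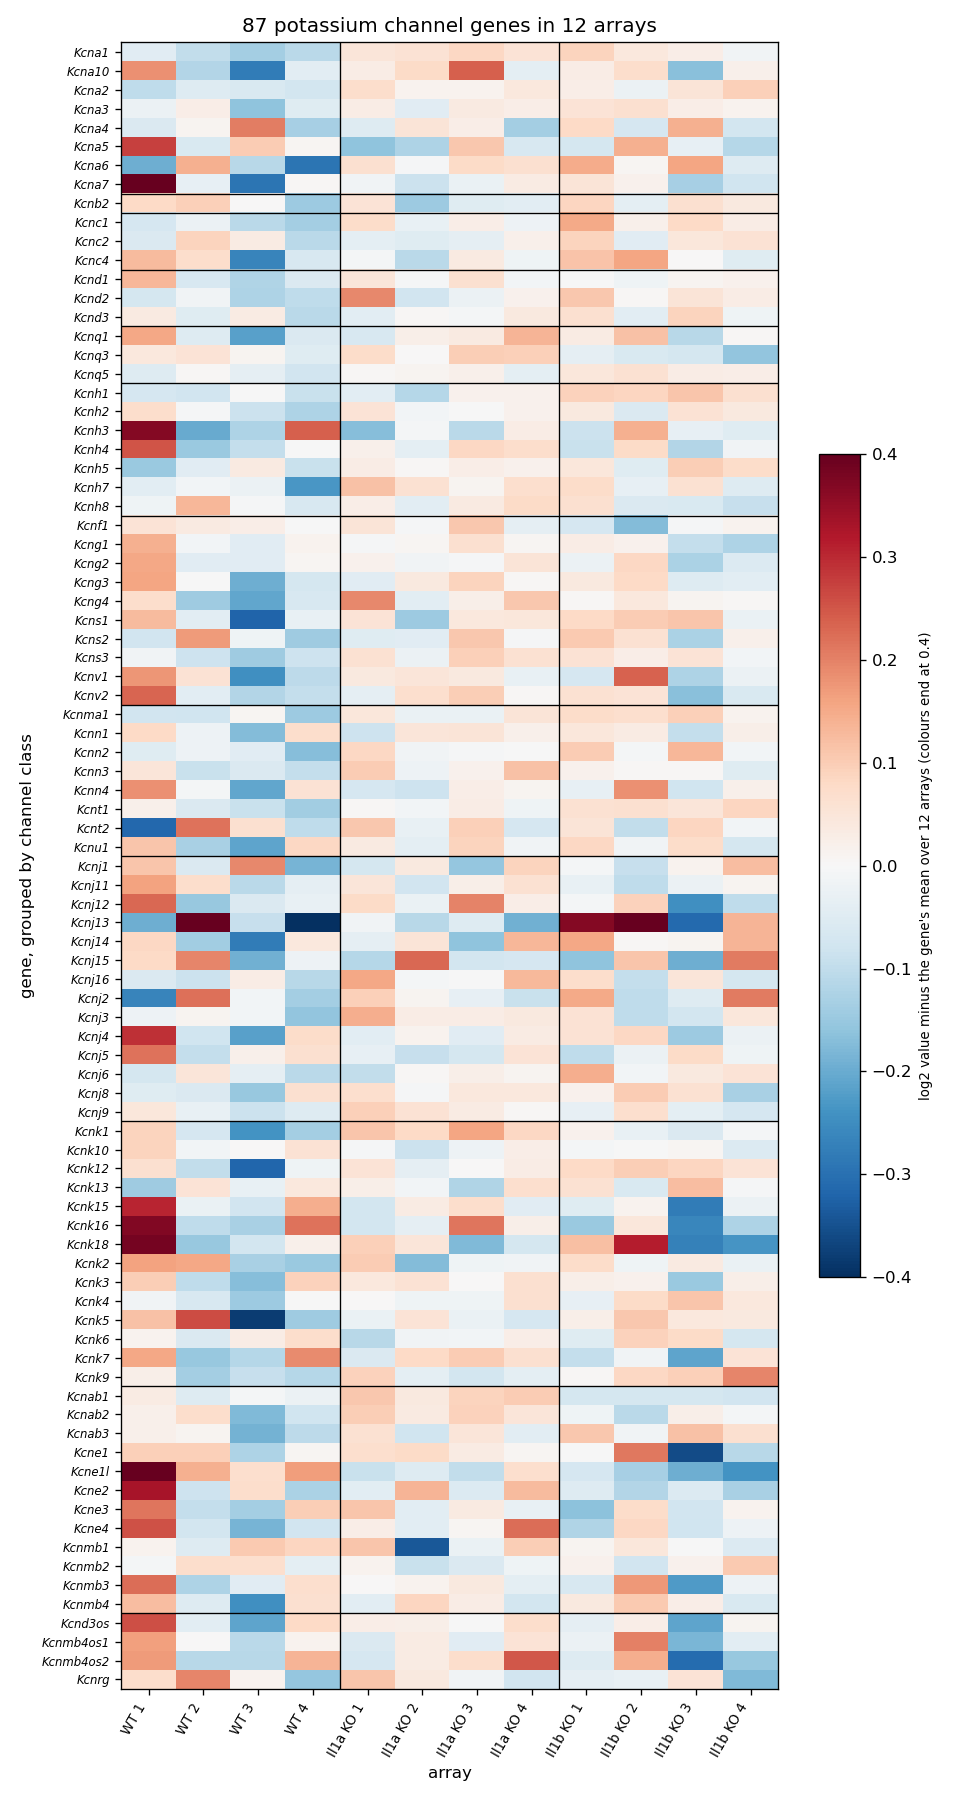
The 87 potassium channel genes (rows, grouped by class) in the 12 arrays (columns), coloured by the log2 value minus the mean of the gene over the 12 arrays, with colours ending at 0.4. Wild type replicate 1 is the column with the most high values (highest in 31 of 87 genes) and wild type replicate 3 the one with the most low values (lowest in 31 of 87).

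The spread within groups set how small a difference could be seen. The pooled SD within groups had a median of 0.0946 over the members and 0.0841 over all genes. It was 0.126 for the 45 dimmer members and 0.0675 for the 42 brighter ones.

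The proteins that bind and place these channels were taken as a list of 30 genes, all measured. In the Il1a KO 0 of 30 passed (0.171% of all genes did), with 23 positive differences (50.2% of all genes) and a median of 0.04. In the Il1b KO 1 rose and 1 fell (0.421% and 0.391% of all genes), with 26 positive (52.0% of all genes) and a median of 0.05. How far the sign counts of this list rest on single wild-type arrays was not tested. The gene that rose was Abcc9 (SUR2), the sulfonylurea receptor that pairs with Kcnj8 in vascular ATP-sensitive channels. It read 8.50, 8.57, 8.56 and 8.58 in wild type, 8.66, 8.65, 8.63 and 8.74 in the Il1a KO, and 8.74, 8.72, 8.77 and 8.79 in the Il1b KO. Every knockout array lay above every wild-type array. The differences were 0.20 in the Il1b KO (SE 0.037, limma adjusted p = 0.0187) and 0.12 in the Il1a KO (adjusted p = 0.328).

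Abcc9 no longer passed when wild type replicate 1 was left out (limma adjusted p = 0.0503), nor without Il1b KO replicate 1 (0.0566), 3 (0.0711) or 4 (0.0766), and with only the 2 groups in the fit (0.0928). Of the 6 pericyte and vascular smooth muscle markers, 3 had positive differences in each knockout (50.2% and 52.0% of all genes did). Rgs5 alone of them passed, higher in the Il1b KO (0.22, limma adjusted p = 0.033). The list as a whole averaged 9.01 to 9.10 in wild type, 9.05 to 9.09 in the Il1a KO and 9.05 to 9.14 in the Il1b KO. The part of these markers in the Abcc9 value was not tested.

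The gene that fell was Kcnip3 (DREAM, calsenilin), a calcium-binding partner of Kv4 channels and one of the Kcnip genes that the rule leaves out. It read 11.25, 10.98, 11.33 and 11.15 in wild type, 11.24, 11.18, 11.22 and 11.26 in the Il1a KO, and 10.81, 10.79, 10.82 and 10.74 in the Il1b KO. The Il1b KO arrays lay below all other 8. The difference was -0.39 from wild type (SE 0.0622, limma adjusted p = 0.00774) and the Il1a KO exceeded the Il1b KO by 0.43 (adjusted p = 0.00328). The first call held without any single array and was lost with only the 2 groups in the fit (adjusted p = 0.0598).

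Kcnip3 lies on chromosome 2, with 24 measured genes between it and Il1b. The 7 members on that chromosome are farther away, the nearest being Kcna4 with 238 measured genes in between and the farthest Kcnt1 with 1005, and 0 of 7 passed. Of the other excluded genes, Kcnip1 differed by 0.16 and 0.13 (limma adjusted p = 0.16 and 0.136), Kcnip4 by 0.12 and 0.05, and Kcnip2 by 0.01 and -0.00. Kcnj10 (Kir4.1), the main potassium uptake channel of astrocytes, differed by 0.08 and 0.05 (adjusted p = 0.555 and 0.618), beside astrocyte markers that averaged 10.89 to 11.01, 10.95 to 11.00 and 10.92 to 10.99.

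Transporters and pumps that move potassium alongside the channels showed 0 calls among 14 measured of 18 listed. Positive differences numbered 10 in the Il1a KO (50.2% of all genes) and 11 in the Il1b KO (52.0% of all genes). Slc12a2 (NKCC1), the inward chloride cotransporter, differed by 0.19 and 0.17 (limma adjusted p = 0.18 and 0.135), and Slc12a5 (KCC2), its neuronal outward counterpart, by 0.11 and 0.18 (adjusted p = 0.564 and 0.135). Of the HCN channels, which carry the mixed-cation pacemaker current, 3 of 4 were measured and 0 passed. Hcn2 differed by 0.24 in the Il1a KO without overlap and by 0.20 in the Il1b KO (adjusted p = 0.18 and 0.163).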

How the data were processed

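The deposited values are log2 probe set values that the authors made from the array scans. The tools listed per the submitters' processing notes are RMA, GCOS 1.4, Partek and limma, without a stated role. The RMA scale is an inference from these names and from the range of values (2.97 to 14.4), with array medians of 7.67 to 7.72 and correlations between arrays of 0.988 to 0.997. The arrays lie on a nearly common scale without sharing 1 distribution, so a shift in total RNA between groups would not be measured, and differences of dim genes can be compressed. For the annotation, a genome build is not given in the sources used here.

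The arrays hold 35557 probe sets, and 21789 had exactly 1 gene symbol in the platform's annotation. Another 1621 with several symbols were left out. For 999 genes with more than 1 probe set, 3 of them members, the brightest stood for the gene. All 87 members were matched by Entrez identifier to RefSeq genes, which gave chromosomes and gene order, and promoter windows came from RefSeq. No array pair held identical values.

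The 12 arrays were fitted together with limma 3.58.1 in R 4.3.3, using group means and two-sided moderated tests with no intensity trend. Benjamini-Hochberg adjustment ran over the 19938 genes of each comparison, and 0.05 was the threshold. Differences are knockout minus wild type, or Il1a KO minus Il1b KO. Where a sentence gives a pair of differences from wild type, the Il1a KO comes first.

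The members, lists and tests were chosen with earlier results of these data known. Named genes were members that passed, the 5 largest positive and 5 largest negative differences of each comparison and a list of examples by role; other members are named where their arrays did not overlap, chosen after their values were seen, as were Kcnq1, Kcnd1, Slc12a2, Slc12a5 and Hcn2. Alternatives were the mean of all probe sets of a gene, a filter at percentile 25, renewed quantile normalization, centring, an intensity trend with a robust fit, array weights, fits on 2 groups, the replicate number as a block and each array left out. Leaving out wild type replicate 1 and Il1a KO replicate 1 together was added after seeing the data.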

Additional observations from a re-analysis of the deposited data

Results flagged for a closer look

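Within the named members, 132 groups of 4 arrays were examined for 1 array far from the other 3, and 9 were found, where chance alone flags about 1 in 20 groups, or 6.6 of 132. In the Il1a KO, replicate 2 was low for Kcna3 (9.03, the others 9.10 to 9.11) and for Kcna6 (9.22, the others 9.29 to 9.31). Replicate 1 of the Il1a KO, the array with the divergent sex-linked profile, was high for Kcnj3 (10.04, the others 9.92 to 9.93) and for Kcnn2 (8.37, the others 8.28 to 8.29). Replicate 4 of the Il1a KO was high for Kcnc2 (9.30, the others 9.23 to 9.25). In the Il1b KO, replicate 2 was high for Kcng4 (8.88, the others 8.84 to 8.85) and low for Kcnh2 (9.61, the others 9.71 to 9.72), and replicate 3 was low for Kcnk3 (9.24, the others 9.40 to 9.41). Wild type replicate 4 was low for Kcnh7 (7.93, the others 8.12 to 8.15). None of these 9 members passed the test in any comparison.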

How the results depend on the processing

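The count of potassium channel genes that passed moved with the variance model and the arrays used. In the Il1a KO against wild type it was 0, and became 1 (Kcna1) with an intensity trend and robust fit, 3 (Kcna1, Kcnh7 and Kcnk1) with array weights, and 0 to 1 when single arrays were left out, the 1 being Kcnk1 without wild type replicate 1. In the Il1b KO it was 1, and became 2 (Kcna1 and Kcne1l) with the trend and robust fit, 9 with array weights, 0 with only the 2 groups in the fit, and 0 to 1 with single arrays left out. Between the knockouts it was 0, and became 1 (Kcnab1) with dim genes left out, with centring, with the trend and robust fit and with array weights. Array weights put 2.86 on wild type replicate 4 and 0.327 on wild type replicate 3. The median difference of the family was 0.03, 0.03 and 0.003 in the 3 comparisons and ran over the settings from 0.007 to 0.07, from -0.005 to 0.05 and from -0.004 to 0.02. It was lowest in both comparisons with wild type without wild type replicate 3. Over all genes, the 34 calls of the Il1a KO became 74 with the trend and robust fit, 306 with array weights, 15 with 2 groups and 18 to 49 with single arrays left out. The 162 calls of the Il1b KO became 309, 1145, 85 and 106 to 177, and the 130 between the knockouts became 244 with array weights. Renewed quantile normalization moved the Il1b KO split from 84 higher and 78 lower to 69 and 98.

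Replicate numbers did not pair the arrays: same-numbered arrays correlated in their deviations at -0.374 to 0.441, with 2 of 12 over 0.1 and 2 of 12 correlating best with their own number. With the replicate number as a block, 0, 1 and 0 members passed, and Kcne1l had an adjusted p of 0.0494. The block lowered the calls over all genes from 34, 162 and 130 to 26, 120 and 105, and Abcc9 lost its call (adjusted p = 0.0556). The 4 arrays of a group limit the precision, as does the larger spread of the 45 members below percentile 50.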
